A study of Mus musculus with 2 samples.

Results

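Gas5, Snhg3, Snhg12, Snhg4 and 2810008D09Rik are mouse long noncoding RNA (lncRNA) genes known as hosts of small nucleolar RNAs (snoRNAs). The last of them is named Snhg20 in RefSeq and is called Snhg20 here. These 5 genes were chosen by symbol, and they are 5 of the 3134 genes in the deposited table. The table compares RNA recovered with an antibody against HP1 alpha, a heterochromatin protein, with RNA of a library made with no antibody, which the labels call the input. Both libraries came from NIH3T3, an established mouse fibroblast line with no genetic change or treatment named in the labels, and were made by enhanced crosslinking and immunoprecipitation (eCLIP). In eCLIP, ultraviolet light (here 254 nm, 400 mJ per cm2) links proteins to the RNA they touch, RNase trims that RNA, and the RNA that runs above the protein on a gel is sequenced. Each group had 1 library, so no difference could be set against a spread between replicates, and every interval below is a 95% interval that covers counting error only.

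A snoRNA guides a chemical modification or the cleavage of ribosomal RNA, and most mammalian snoRNAs are cut out of the introns of a host transcript. In this class of lncRNA the introns carry the guide RNAs, while the spliced exons form a separate, mostly short-lived RNA. Many host genes, coding and noncoding, begin their RNA with a run of pyrimidines, the terminal oligopyrimidine (TOP) tract, through which translation follows growth signals. Several spliced host RNAs reach the cytoplasm, engage ribosomes and are removed by nonsense-mediated decay.

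The HP1 alpha library had 513965 listed counts and the input had 830031, so equal shares of the 2 libraries correspond to 1.61 input counts for each HP1 alpha count. These totals cover the listed genes only and are not sequencing depths. Each listed gene had at least 100 counts in at least 1 library. The value columns of the table are headed MEF and mock rather than NIH3T3 and input. Of 10 fibroblast markers, 8 were listed, and of the 4 immune, 4 epithelial and 4 endothelial markers, 0 were listed. Bulk libraries cannot tell fewer cells that hold an RNA from less of that RNA per cell.

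The RefSeq annotation of GRCm38.p6 bore out the host label for 4 of the 5 genes. All 5 are annotated as lncRNA genes, and all are short, between 1.754 and 4.907 kb from first to last base, against a median of 48.2 kb over the listed genes with a known span. Gas5 (ENSMUSG00000053332.9) lies on chromosome 1 from 161034601 to 161038539, has 8 snoRNA genes within its span and 8 RefSeq transcripts, and is transcribed from the + strand. Snhg12 (ENSMUSG00000086290.4), on chromosome 4 from 132308678 to 132311024, holds Snora16a, Snora44, Snora61 and Snord99. Snhg3 (ENSMUSG00000085241.3), also on chromosome 4, from 132351933 to 132353686 on the opposite strand, holds Snora73a and Snora73b, guides of the H/ACA family that act in ribosomal RNA cleavage. Only 40908 bases separate Snhg12 from Snhg3. Snhg4 (ENSMUSG00000097769.3), on chromosome 18 from 35553410 to 35558316, holds Snora74a and the microRNA gene Mir1949. Snhg20 (ENSMUSG00000086859.3), on chromosome 11 from 117076783 to 117078955, holds 0 annotated snoRNA genes, and the small RNA gene within it is the microRNA gene Mir6516. Snhg20 is therefore a snoRNA host by its name, but not by this annotation. Whether the small RNA genes within the 5 spans have rows of their own in the table was not checked.

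**Figure D1:**
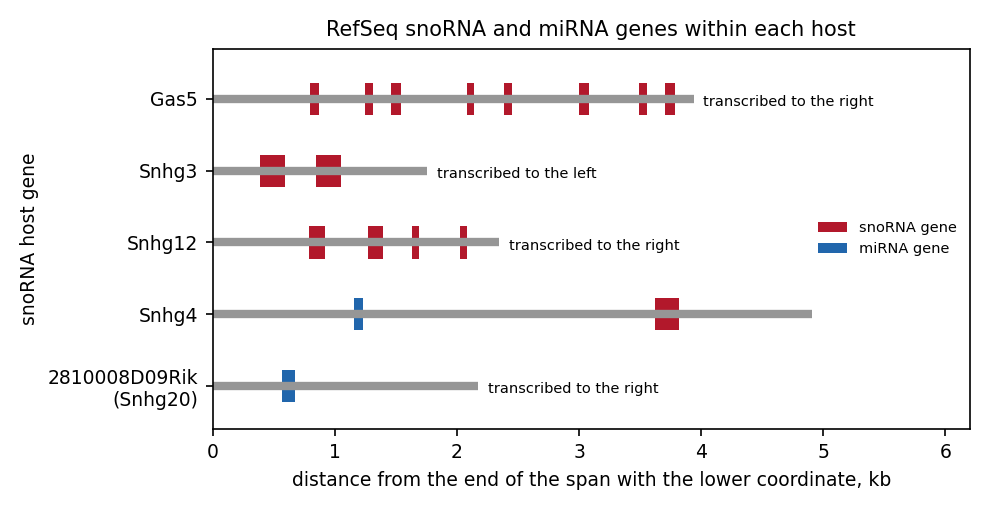
Map of the 5 host genes, each drawn from the end of its RefSeq span with the lower coordinate (kb, horizontal axis), with snoRNA genes in red and microRNA genes in blue. The 8 snoRNA genes of Gas5 are spread along its span, Snhg20 has 0 snoRNA genes, and the transcription direction is given for the 4 genes for which a strand was known.

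The start regions of the hosts are shown to identify the genes compared, and what they hold did not follow the direction of the ratios given further on. RefSeq sequence was at hand for 5 start sites of 4 of the genes (GRCm38.p6), from 60 bases before to 50 bases after each annotated start, with any TATAAA or TATATA on the gene's strand in capitals.
Gas5, first start, chr1:161034541-161034650, + strand: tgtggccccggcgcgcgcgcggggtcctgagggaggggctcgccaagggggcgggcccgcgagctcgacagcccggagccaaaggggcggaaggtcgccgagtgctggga
Gas5, second start, chr1:161035106-161035215, + strand: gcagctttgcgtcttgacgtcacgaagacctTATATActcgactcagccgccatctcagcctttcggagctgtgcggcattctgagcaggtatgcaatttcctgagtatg
Snhg3, chr4:132353637-132353746, - strand: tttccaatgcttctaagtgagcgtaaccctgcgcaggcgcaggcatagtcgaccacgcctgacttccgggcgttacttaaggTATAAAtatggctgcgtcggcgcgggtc
Snhg12, chr4:132308618-132308727, + strand: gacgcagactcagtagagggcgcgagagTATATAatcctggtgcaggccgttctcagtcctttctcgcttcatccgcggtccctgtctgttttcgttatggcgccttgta
Snhg20, chr11:117076723-117076832, + strand: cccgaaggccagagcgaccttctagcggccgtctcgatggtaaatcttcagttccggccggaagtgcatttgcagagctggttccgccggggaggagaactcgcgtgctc

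TATATA and TATAAA are forms of the TATA box, and their letters can overlap each other in longer runs. A match began 29 bases before the second start of Gas5 and 32 bases before the start of Snhg12. In Snhg3 the match began at base 23 after the annotated start. The first start of Gas5 and the start of Snhg20 held no match in these 110 bases. Of all 32851 RefSeq promoter windows, 5.19% held either word in the same 110 bases on the gene's strand, and 17.1% held one on either strand of the full 300 bases. The motif was chosen after the sequences were seen. Among the 102 other listed genes with a match, the median ratio of HP1 alpha over input was 0.821, and among the 2445 listed genes without one it was 0.866. Relative to genes of like span the order turned, with median log2 ratios of 0.070 and -0.0024. The genes with a match had a median span of 16.8 kb, and those without one 48.6 kb. Of the 5 start sites, that of Snhg12 had the longest run of C and T alone within 20 bases, 9 bases, and 10.7% of all promoter windows had a run at least as long. The second start of Gas5 had a run of 6 bases, against a median of 5 over all windows.

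Gas5, first isolated as a transcript that accumulates in growth-arrested fibroblasts and known as a decoy of the glucocorticoid receptor, took a larger share of the HP1 alpha library than of the input. Its HP1 alpha count was 134 and its input count was 140. Scaled to 1000000 listed counts (CPM), its level was 261 in HP1 alpha and 169 in the input. Its ratio of shares was 1.55 (1.21 to 1.97). The other hosts lay on the opposite side.

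Snhg3, the host of the Snora73 guides, had an HP1 alpha count of 95 and an input count of 258, or 185 and 311 CPM, for a ratio of 0.595 (0.465 to 0.755). Snhg12, a host of H/ACA guides and 1 C/D guide, had 88 and 248 counts, or 171 CPM in HP1 alpha and 298.8 CPM in the input, a ratio of 0.573 (0.444 to 0.734). These neighbours on chromosome 4 were thus lower in HP1 alpha by nearly the same factor. Snhg4, the host of Snora74a, had 43 and 174 counts, or 83.7 and 210 CPM, and its ratio was 0.399 (0.279 to 0.560). Snhg20 had 22 and 125 counts, or 42.8 and 151 CPM. Its ratio of 0.284 (0.172 to 0.450) was the lowest of all 3134 listed genes. For none of the 5 did the counting interval of the ratio include 1.

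**Figure D2:**
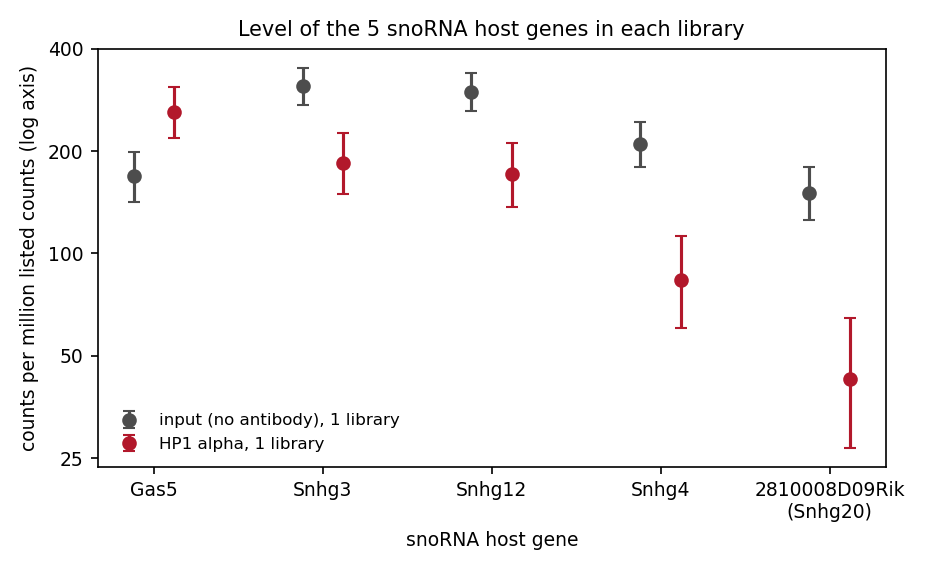
Level of each host in CPM, counts scaled to 1000000 listed counts, in the input (grey) and in the HP1 alpha library (red), on a log axis, with exact 95% Poisson intervals and 1 library per group. Gas5 is the host that is higher in HP1 alpha (261 against 169), and the gap in the other direction is widest for Snhg20 (42.8 against 151).

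By the rule of a 2-fold change with an interval that excludes 1, Snhg4 and Snhg20 were lower, and 0 of the 5 were higher. Over all listed genes, 0.83% were lower and 2.36% were higher by this rule. At a 1.5-fold change, 4 of the 5 were lower and 1 was higher, against 12.3% and 7.63% of all listed genes. By the interval alone, 4 of the 5 were below 1 and 1 was above, against 32.6% and 15.4% of all listed genes. Among the 30 listed lncRNA genes, which include the 5, 30.0% had intervals below 1 and 40.0% had intervals above 1, and 6.67% were lower and 13.3% were higher by the 2-fold rule, so the 2 lower lncRNA genes were Snhg4 and Snhg20. The median log2 ratio of the 5 hosts was -0.80, and that of all listed genes was -0.21. The members were chosen with such values known, so these counts and medians are descriptions.

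The scaling of the libraries moved the counts of called genes. With TMM factors, which raised every log2 ratio by 0.20, 127 genes were higher and 9 were lower, instead of 74 and 26. Under TMM the ratios of Snhg4 and Snhg20 were 0.462 and 0.332, and 4 hosts had intervals below 1, as 13.7% of all listed genes did. Gas5 had a ratio of 1.77 under TMM and of 1.43 when only genes with at least 400 counts set the totals. The authors' deposited table gives folds of 1.59 for Gas5, 0.612 for Snhg3, 0.590 for Snhg12, 0.411 for Snhg4 and 0.292 for Snhg20, scaled to total mapped reads per its header.

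The listing minimum bears on the 4 hosts that were lower. With fewer than 100 counts in HP1 alpha, each was listed through its input count, and this limits how high its ratio could be at the HP1 alpha count it had. The limit was 1.53 for Snhg3 and 1.42 for Snhg12, so it did not fix their direction. It was 0.694 for Snhg4, which fixed a ratio below 1 but not the 2-fold call. It was 0.355 for Snhg20, so its call could not change with the scalings used, and any listed gene with its 22 counts would have been called lower, as would each of the 7 listed genes with 30 or fewer HP1 alpha counts. Gas5 passed the minimum in each library separately.

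The 5 hosts differed among themselves by more than counting error in 6 of 10 pairs, a comparison in which the scaling of the libraries cancels. Gas5 stood apart from each of the other hosts. Its ratio was 2.599 times that of Snhg3 (1.84 to 3.68), 2.70 times that of Snhg12 (1.89 to 3.84), 3.87 times that of Snhg4 (2.53 to 5.98) and 5.44 times that of Snhg20 (3.20 to 9.51). The ratio of Snhg3 was 2.09 times that of Snhg20 (1.23 to 3.66), and the ratio of Snhg12 was 2.02 times that of Snhg20 (1.18 to 3.54). The listing minimum bears on these pairs. It allowed ratios of at most 1.53 for Snhg3 and 1.42 for Snhg12 at their HP1 alpha counts. For Snhg4 and Snhg20 it allowed at most 0.694 and 0.355. All of these limits were below the ratio of Gas5, 1.55. The limit of Snhg20 was also below the ratios of Snhg3, Snhg12 and Snhg4. The minimum thus fixed the direction of every pair with Gas5 and of every pair with Snhg20, among them all 6 separated pairs. Snhg3 over Snhg12 gave 1.04 (0.729 to 1.48), an interval that leaves room for a difference of up to 1.48-fold. Snhg3 over Snhg4 gave 1.49 (0.974 to 2.30), Snhg12 over Snhg4 gave 1.44 (0.934 to 2.23), and Snhg4 over Snhg20 gave 1.40 (0.776 to 2.59), so these 3 pairs could not be separated at this depth.

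Together the 5 hosts held 0.0743% of the listed HP1 alpha counts and 0.114% of the listed input counts, from 382 and 945 counts, a ratio of 0.653 (0.578 to 0.736). Gas5 supplied 35.1% of the 382 HP1 alpha counts of the group and 14.8% of the 945 input counts. Without Gas5 the other 4 hosts had a summed ratio of 0.498 (0.430 to 0.574). The 25 other listed lncRNA genes had a summed ratio of 1.32 (1.29 to 1.36), from 1.68% of the HP1 alpha counts and 1.27% of the input counts. As single genes they were split, with a median ratio of 0.985, 12 of 25 ratios above 1, 11 intervals above 1 and 5 below. They were longer, with a median span of 33.2 kb against 2.35 kb for the 5 hosts. The 6 of them with a span under 10 kb had a median ratio of 0.971 and a median span of 6.72 kb.

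The order of the hosts by raw count, which also reflects their length, differed between the libraries. In the input the counts fell from Snhg3 (258) through Snhg12 (248), Snhg4 (174) and Gas5 (140) to Snhg20 (125). In that order, Snhg12 exceeded Snhg4 beyond counting error, by 1.43-fold (1.17 to 1.74), and the other steps did not. In HP1 alpha, Gas5 came first (134), 1.41-fold above Snhg3 (1.08 to 1.85), followed by Snhg12, Snhg4 and Snhg20, and there only Snhg3 and Snhg12 could not be separated (1.08, 0.799 to 1.46). Among the 3134 genes, Gas5 ranked 2201st by count in the input and 1154th in HP1 alpha, whereas Snhg3 ranked 981st and 1771st.

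Levels of different genes are comparable only per length of counted sequence. The RefSeq span with introns was used here, and on that scale the order was another. Whether introns were counted is not known, so the values per kb of span may not compare levels between genes. The input held 177 CPM per kb for Snhg3, 127 for Snhg12, 69.3 for Snhg20, 42.8 for Gas5 and 42.7 for Snhg4. The HP1 alpha library held 105 CPM per kb for Snhg3, 73.0 for Snhg12, 66.2 for Gas5, 19.7 for Snhg20 and 17.0 for Snhg4. Per kb of span, Snhg3 was thus the densest host in each library. On that scale Gas5 moved from the value of Snhg4 in the input to that of Snhg12 in HP1 alpha. Per kb, Gas5 and Snhg4 could not be separated in the input (1.00, 0.797 to 1.26), nor Snhg12 and Gas5 in HP1 alpha (1.10, 0.833 to 1.45).

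Across the table the ratio was larger in longer genes, and the hosts are among the shortest genes listed (Spearman's rho of span and ratio 0.61 over 3089 genes, a description in which genes are no replicates of each other). The 200 genes nearest in span to each host had median ratios between 0.728 and 0.738. Divided by that median, the ratio was 2.12 for Gas5 (1.66 to 2.71), 0.809 for Snhg3 (0.630 to 1.02), 0.783 for Snhg12 (0.605 to 0.999), 0.553 for Snhg4 (0.383 to 0.769) and 0.394 for Snhg20 (0.234 to 0.612). On this scale Gas5 was higher and Snhg20 lower by the 2-fold rule, Snhg4 no longer met it, and the interval of Snhg3 included 1. Of the 3089 genes, 38 were higher and 4 were lower on it. The listing limit of Snhg20, 0.355 against a median of 0.734 for its span, fixed its call here too. The parts of span and of intron reads in these ratios were not tested, since the sources used here do not say whether introns were counted.

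**Figure D3:**
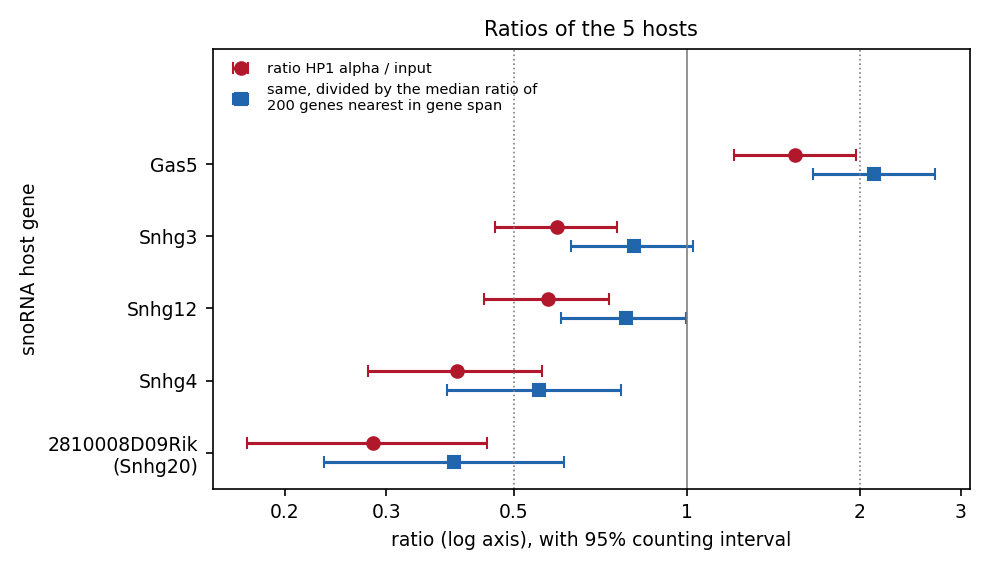
Ratio of HP1 alpha over input for each host (red circles) and the same ratio divided by the median of the 200 genes nearest in span (blue squares), on a log axis, with 95% counting intervals and dotted lines at 0.5 and 2. Gas5 lies above 1 on both scales (1.55 and 2.12), and Snhg4 and Snhg20 lie below 1 on both.

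Of the 115 listed genes with a span under 5 kb, 7 had a ratio above 1 and 61 had an interval below 1, against 968 and 1023 of all 3134 listed genes. Gas5 had the highest ratio of the 115, and Snhg20 and Snhg4 had the lowest and next lowest. The next highest short gene was Hspa8, a heat shock cognate chaperone gene of 3.927 kb that itself hosts snoRNAs, whose counts were 137 (HP1 alpha) and 168 (input), for a ratio of 1.32 (1.04 to 1.66). Gas5 over Hspa8 gave 1.17 (0.835 to 1.65). The next lowest after Snhg4 was Rpl27a, a ribosomal protein gene and snoRNA host, with counts of 37 and 148, a ratio of 0.404 (0.274 to 0.582). At 37 HP1 alpha counts the listing minimum fixed its ratio below 1, as it did for Snhg20 and Snhg4.

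**Figure D4:**
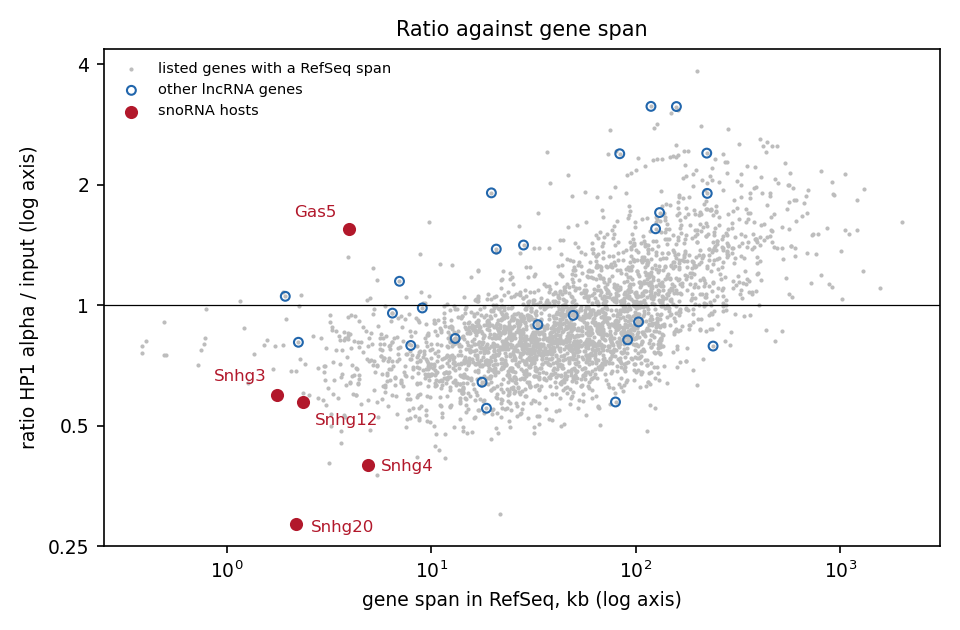
Ratio of HP1 alpha over input against RefSeq gene span in kb, both on log axes, for the 3089 listed genes with a known span (grey), the other lncRNA genes (blue circles) and the 5 hosts (red). Gas5 (3.939 kb, ratio 1.55) lies above the short genes around it, and Snhg20 and Snhg4 lie at the lower edge.

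The 2 listed lncRNA genes other than the 5 that hold annotated snoRNA genes had ratios between that of Gas5 and those of the remaining hosts. The clone-named gene 2410006H16Rik, with 3 snoRNA genes in 1.93 kb, had HP1 alpha and input counts of 71 and 109, for a ratio of 1.05 (0.769 to 1.43). The gene 1110038B12Rik, with 2 snoRNA genes in 2.237 kb, had counts of 53 and 106, a ratio of 0.807 (0.569 to 1.13). Each of Snhg3, Snhg12, Snhg4 and Snhg20 had a ratio below that of 2410006H16Rik beyond counting error, from 0.270 times for Snhg20 (0.150 to 0.477) to 0.565 times for Snhg3 (0.380 to 0.843). Against 1110038B12Rik this held for Snhg4 and Snhg20, while Gas5 was above it by 1.91-fold (1.25 to 2.94). Gas5 over 2410006H16Rik gave 1.47 (0.986 to 2.19), so these 2 genes could not be separated. These comparisons were chosen after the values were seen, and the listing limit fixed the direction of those with Gas5, Snhg4 and Snhg20. A listed gene with 61 or fewer HP1 alpha counts could only have a ratio below 1, which includes 1110038B12Rik. Among the 6 lncRNA genes with annotated snoRNA genes, Gas5 has the most, 8, and the highest ratio, and Snhg4 has the fewest, 1, and the lowest. In between, the order of ratio did not follow the number, since Snhg12 with 4 had a lower ratio than 1110038B12Rik with 2.

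Gas5 was closer in ratio to Neat1 and Malat1, both abundant nuclear lncRNAs, than the other hosts were. Both were picked by name outside the planned comparisons, and no other nuclear lncRNA was compared in this way. The ratio of Gas5 was 1.12 times that of the paraspeckle RNA Neat1 (0.862 to 1.45). It was 1.35 times that of the speckle RNA Malat1 (1.05 to 1.73), beyond counting error. Snhg3, by contrast, had 0.431 times the ratio of Neat1 (0.331 to 0.557) and 0.518 times that of Malat1 (0.404 to 0.661). Snhg20 had 0.206 times the ratio of Neat1 (0.124 to 0.329), a direction that the listing limit fixed. Among the 30 lncRNA genes, counted from the lowest ratio, Gas5 ranked 22nd, Snhg3 6th, Snhg4 2nd and Snhg20 1st.

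Protein-coding snoRNA hosts, largely genes of ribosomal proteins and translation factors, lay mostly below 1 as well. Of 55 such symbols, 28 were listed, with 19 intervals below 1, 1 above, 2 genes lower and 0 higher, and a median log2 ratio of -0.46. Over all listed genes the shares were 32.6% below, 15.4% above, 0.83% lower and 2.36% higher. Relative to genes of like span their median was -0.042, and that of the 5 members was -0.35. The 5 include Snhg20, which holds no annotated snoRNA gene. The lncRNA genes 2410006H16Rik and 1110038B12Rik hold annotated snoRNA genes but are not among the 5. They had log2 values of 0.52 and 0.15 on that scale, so the gap between the medians depends on the genes chosen. The 2 lower genes were Rpl27a and Tbrg4, a gene of mitochondrial RNA processing, with counts of 36 and 122, a ratio of 0.477 (0.319 to 0.696). The listing minimum fixed a ratio below 1 for any listed gene with 61 or fewer HP1 alpha counts. Among the 19 genes with intervals below 1, these were Rpl27a, Tbrg4, Rpl23, Pabpc4, Prpf39, Rps2 and Tpt1. The rest of the 19 had more HP1 alpha counts, so their direction was not fixed. Among the most abundant, the translation initiation factor genes Eif4g1 and Eif4g2 had ratios of 0.802 (0.710 to 0.903) and 0.710 (0.625 to 0.805). Atp5b, of the mitochondrial ATP synthase, had 0.939 (0.812 to 1.08), and Gnb2l1, now Rack1, of the small ribosomal subunit, had 0.736 (0.625 to 0.865).

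Transcripts of the machinery around snoRNAs and their hosts held 0 higher and 0 lower genes by the 2-fold rule, which with so few listed genes is near the 2.36% and 0.83% of all listed genes. Of the snoRNP proteins and assembly factors, 4 were listed, with a median log2 ratio of -0.33. The C/D core protein genes Nop56 and Nop58, which are themselves snoRNA hosts, had ratios of 0.726 (0.559 to 0.937) and 0.887 (0.683 to 1.15). Tcof1, whose product treacle acts in ribosomal RNA synthesis, had 0.681 (0.511 to 0.901), and Tgs1, the cap hypermethylase gene, had 0.860 (0.613 to 1.20).

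Nonsense-mediated decay, the route that removes spliced Gas5 RNA, was represented by 8 listed factors, of which 4 had intervals below 1 and 0 above, against 32.6% and 15.4% of all listed genes, with a median log2 ratio of -0.29. The kinase gene Smg1 had a ratio of 0.876 (0.756 to 1.01), the endonuclease gene Smg6 had 1.14 (0.974 to 1.32) and the release factor gene Etf1 had 0.733 (0.583 to 0.919). Of 6 listed genes for intron debranching and snoRNA end processing, 4 had intervals below 1, against the same 32.6%, with a median of -0.40. They included the exonuclease genes Xrn1 at 0.737 (0.595 to 0.909) and Xrn2 at 0.779 (0.613 to 0.984), and the exosome gene Exosc10 at 0.669 (0.520 to 0.854), while the exosome cofactor gene Zcchc7 had 0.986 (0.813 to 1.19).

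Of 10 listed genes for the control of TOP translation and the glucocorticoid receptor, 1 had an interval above 1 and 1 below, against 15.4% and 32.6% of all listed genes, with a median of -0.077. Rptor, the scaffold of mTOR complex 1 and a gene of 297 kb, had 1.56 (1.35 to 1.81). Nr3c1, the glucocorticoid receptor that Gas5 is known to bind, had HP1 alpha and input counts of 234 and 357, for a ratio of 1.06 (0.894 to 1.25). Larp1, which binds TOP tracts, had 0.899 (0.749 to 1.08), and its relative Larp4b had 0.946 (0.780 to 1.14).

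**Figure D5:**
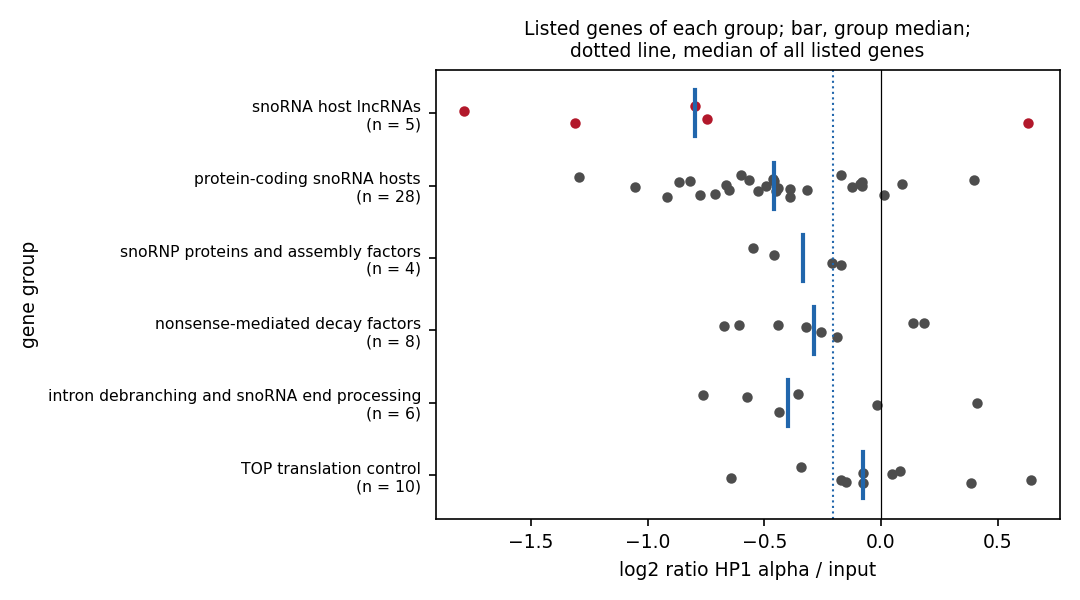
Log2 ratio of HP1 alpha over input for the listed genes of each group (1 point per gene), with the group median as a blue bar and the median of all listed genes (-0.21) as a dotted line. Among the 6 groups drawn, the 5 snoRNA host lncRNAs (red) span the widest range, from -1.79 for Snhg20 to 0.63 for Gas5.

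The 3 listed nearest neighbours of the hosts had ratios closer to 1 than the hosts beside them. Phactr4, a protein phosphatase regulator gene whose RefSeq span ends 2235 bases from that of Snhg3, had counts of 102 and 189, a ratio of 0.872 (0.678 to 1.11). Matr3, the gene of a nuclear matrix protein that lies 3841 bases from Snhg4, had 169 and 368 counts and 0.742 (0.614 to 0.892), an interval above that of Snhg4. Sec14l1, 36212 bases from Snhg20, had 136 and 273 counts and 0.805 (0.650 to 0.992). The listing limits of Snhg4 (0.694) and Snhg20 (0.355) were below the ratios of Matr3 and Sec14l1, which fixed the direction of these 2 contrasts. The interval of Phactr4 overlapped that of Snhg3 (0.465 to 0.755). The other nearest neighbours were not listed. Gas5 overlaps Zbtb37, which was not listed, by 264 bases, and how reads in shared bases were assigned was not tested.

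The listed genes whose pair of levels was most like that of each host were named by their distance over the 2 log2 CPM values. For Gas5 these were Mical3, Aff3 and Nuak1, at distances up to 0.066 and with ratios down to 1.48. They span 242, 455 and 69.8 kb, against 3.939 kb for Gas5. For Snhg3 they were Ptp4a2, Srebf1 and Surf4 (0.600, 0.618 and 0.576), and for Snhg12 they were Ddost, Smo and Ccnl2 (0.582, 0.570 and 0.605). Snhg4 and Snhg20 had no such close partners. The nearest to Snhg4 were Pnpt1, Fzd2 and Rpl32, at 0.19 or farther, and the nearest to Snhg20 were 9330185C12Rik, Timm23 and Thbs3, at 0.30 or farther. With 2 libraries, this likeness rests on 2 values per gene.

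The microRNAs of Mir6516, the annotated small RNA gene within Snhg20, are given to identify what that span holds in place of a snoRNA gene. They are 22 bases each (GRCm38.p6, + strand), with the seed, bases 2 to 8, in capitals, and their own levels were not examined.
mmu-miR-6516-5p, chr11:117077370-117077391: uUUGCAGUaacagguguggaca
mmu-miR-6516-3p, chr11:117077412-117077433: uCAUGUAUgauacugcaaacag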

How the data were processed

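The authors deposited 1 table with raw read counts per gene for 1 HP1 alpha and 1 input library, and a fold column, which equals the ratio of the counts multiplied by 1.66 throughout, normalized to total mapped reads per the file headers. The build GRCm38 and the tools featureCounts and STAR 2.6.0c are named, without settings, in the submitters' processing notes. On strand, exon or gene-body counting, multi-mapping and duplicate removal, the labels and the file header say nothing. PCR copies cannot be told from separate molecules in these counts. There were 0 other columns of sample values.

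Counts were divided by each library's listed total. Ratios carry exact 95% Clopper-Pearson intervals from the split of the 2 counts, and pairs of genes carry exact intervals of the odds ratio (SciPy 1.17.1). Log2 ratios used a pseudocount of 0.5 counts. Replicate-based tests were not possible with 1 library per group, and no p-value was computed. Genes were matched to RefSeq by symbol (2969) or synonym (120), and 45 did not match. The RefSeq tables used here give no strand for snoRNA genes, so hosts by position ignore strand. Sequences are from RefSeq, GRCm38.p6, in which 4 of 5 members had start-region entries.

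The members and gene lists were chosen with earlier results of these data known. Named genes are the 5 members, their 3 nearest genes in level, their listed neighbours, and of each gene group the 4 most abundant genes and those called higher or lower; some of these are not reported here. The alternatives were TMM factors (edgeR 4.0.16), DESeq2 1.42.0 size factors, the authors' constant, other totals, genes of like span or, chosen after seeing the data, like mean level, a pseudocount of 5 and a threshold of 1.5-fold.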

Additional observations from a re-analysis of the deposited data

How the results depend on the processing

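No paired analysis was possible because there was a single library for HP1 alpha and for the input. Each of the 5 members kept its direction under all 8 alternatives of scaling, reference and pseudocount, with Gas5 above 1 and the other 4 below. For Snhg20 and Snhg4 the listing minimum fixed that direction under the scalings, so it is no sign of stability. Snhg4 did not meet the 2-fold rule against genes of similar span. Set against genes of similar span, log2 ratios became 1.09 for Gas5, -0.31 for Snhg3 and -0.35 for Snhg12, the members' median became -0.35, and 1 member was higher and 1 lower. At 1.5-fold, 1 was higher and 4 were lower. Leaving out each member in turn put the median between -1.06 and -0.77. Over all genes, the number higher, 74, was 127 under TMM, 132 under DESeq2 scaling, 38 against genes of similar span, 239 at 1.5-fold and 46 at a minimum of 400 counts. The number lower, 26, was 9 with TMM, 9 with DESeq2, 64 when genes with at least 400 counts set the totals, 4 relative to like span, 3 relative to like mean level, 12 with a pseudocount of 5, 386 at 1.5-fold and 1 at a minimum of 400 counts. The cause of these shifts was not tested beyond the added constant of each scaling. Depth limits Snhg20 most, since its 22 counts leave an interval from 0.172 to 0.450.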

Other observations

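Apart from the 5 genes, 121 listed genes have at least 1 RefSeq snoRNA gene within their span, on either strand. Their median log2 ratio was -0.19, with 3 higher and 4 lower, against 2.36% and 0.83% of all listed genes, so the 3 are near the share over all genes. The 91 with 1 snoRNA gene had a median ratio of 0.893 and a median span of 86.9 kb, and the 30 with 2 or more had 0.784 and 8.62 kb. Relative to genes of like span, the medians were -0.084 and 0.042 on the log2 scale, so these groups changed order. The 3 higher genes were long: Ube2e2, a ubiquitin-conjugating enzyme gene, had counts of 601 and 385, a ratio of 2.52 (2.21 to 2.87), Fam110b had 2.51 (1.98 to 3.21) and Eml6, of a microtubule-associated protein, had 2.75 (2.02 to 3.77). The 4 lower genes were Rpl27a, Tbrg4, Snx5, a sorting nexin gene with counts of 112 and 367, a ratio of 0.493 (0.395 to 0.611), and Timm23, of the mitochondrial import channel, with counts of 19 and 102 and a ratio of 0.301 (0.174 to 0.494). The listing minimum fixed the 2-fold call of Timm23 and a ratio below 1 for Rpl27a and Tbrg4, but not the direction of Snx5. The 4 most abundant of the 121, Mid1, Tenm3, Trrap and Prrc2a, had ratios of 1.48 (1.37 to 1.60), 1.22 (1.11 to 1.33), 0.864 (0.777 to 0.960) and 0.766 (0.687 to 0.853). The split into 1 and 2 or more snoRNA genes was chosen after the values were seen, and whether these snoRNA genes lie on the host's strand was not known here.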
